A study of Homo sapiens with 13 samples.

Results

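Surface proteins that are pursued as drug targets in small cell lung cancer (SCLC) were examined at the level of chromatin: NCAM1, SEZ6, SEZ6L, CD276, CEACAM5, CADM1, DLK1, SSTR2 and CD24. These 9 genes were taken as a named list out of the 20033 protein-coding genes of GENCODE release 44 on hg38. They were read from ATAC-seq, a method that inserts sequencing adapters into open DNA by means of the Tn5 enzyme, in 2 established SCLC cell lines. H82 stands for the NEUROD1-driven subtype (SCLC-N) and H146 for another neuroendocrine subtype, so each subtype rests on 1 line. There were 3 untreated H82 samples and 3 given 100 nM FHD-286 over 14 days, and in H146 there were 4 untreated and 3 treated samples. FHD-286 blocks the motor subunits of the SWI/SNF remodeller, SMARCA4 and SMARCA2. The measurement is 1 list of accessible regions for each line, a merge over its untreated and treated samples, with a start and an end for every region and no height, read count or sample of origin. Hence each value below is a single value for a line, with no replicate error and no p-value, and FHD-286 against untreated cells was not tested. The number of samples, their depth (unknown here) and the DNA copies of a line cannot be told apart from the line itself. The paper states that the H146 samples were sequenced in more than 1 batch, and the merged list does not separate these.

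A drug that reaches a tumour cell through its surface, such as an antibody-drug conjugate, a T cell engager or a radioligand, needs a protein that is displayed on that cell and is rare elsewhere. Neuroendocrine SCLC cells carry many neuronal adhesion molecules and receptors, and several of these have become targets. Open chromatin marks promoters and enhancers where regulatory proteins can bind DNA, but an open promoter is not a measure of transcription or of protein on the surface. NCAM1 (CD56) is the neural cell adhesion molecule used in the diagnosis of neuroendocrine tumours, and CADM1 is another immunoglobulin-type adhesion molecule. SEZ6 and its relative SEZ6L are neuronal membrane proteins. SSTR2 is a somatostatin receptor, and DLK1 is an imprinted transmembrane protein related to the Notch ligands. CD276 (B7-H3) belongs to the B7 family of immune regulators, CD24 is a small glycoprotein on a lipid anchor that engages Siglec-10 on macrophages, and CEACAM5 is the carcinoembryonic antigen of epithelial tumours.

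The promoters of most of these genes were accessible in both lines. The transcription start site (TSS, the gene's 5′ end) had a region no further than 1 kb away for 8 of 9 genes in H82 and for 9 of 9 in H146, and DLK1 was the exception. Over all protein-coding genes, 75.4% had such a region in both lines, 5.1% in H82 only and 1.86% in H146 only. The window of 1 kb to either side of the TSS lay wholly inside a region in both lines for SEZ6, CADM1 and SSTR2. SEZ6L followed with 94.9% of the window covered in H82 and 100% in H146. Coverage of the same window was 72.0% and 75.2% for CD276, 65.2% and 66.6% for NCAM1, and 63.3% and 65.9% for CD24, with H82 given first. In these 7 genes both lines thus showed a large accessible block at the start of the gene. CEACAM5 was covered at 32.4% in H82 and 53.3% in H146, and DLK1 at 0% and 6.2%.

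The bases just before the start are shown for 4 of these genes because their content of CpG, the dinucleotide that is dense in the promoters of widely used genes, differs. Each stretch is the 120 bases before the TSS, 5′ to 3′ on the gene's own strand on hg38, with CpG in capitals. The first 3 were inside a region in both lines, and the CEACAM5 stretch was inside a region in H146 only.
SEZ6L chr22:26169342-26169461 (+): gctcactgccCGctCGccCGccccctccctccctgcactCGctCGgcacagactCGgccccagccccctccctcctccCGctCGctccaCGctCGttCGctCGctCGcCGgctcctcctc
CD24 chr6:106975628-106975747 (-): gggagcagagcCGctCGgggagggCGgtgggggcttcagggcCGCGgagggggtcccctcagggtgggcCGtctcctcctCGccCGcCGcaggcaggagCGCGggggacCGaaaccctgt
CADM1 chr11:115504958-115505077 (-): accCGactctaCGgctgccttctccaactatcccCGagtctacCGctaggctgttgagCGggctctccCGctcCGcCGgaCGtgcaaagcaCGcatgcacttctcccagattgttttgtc
CEACAM5 chr19:41708465-41708584 (+): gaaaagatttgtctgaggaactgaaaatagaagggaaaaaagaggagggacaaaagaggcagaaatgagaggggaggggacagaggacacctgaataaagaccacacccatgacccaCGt
These stretches hold 14 CpG in SEZ6L, 12 in CD24, 10 in CADM1 and 1 in CEACAM5. The same stretch, not shown, held 5 in CD276, 3 in SEZ6 and 1 in DLK1. SEZ6 thus had few CpG just before a start whose window was wholly covered in both lines. Over the whole window of 1 kb to either side, the observed number of CpG relative to that expected from base content was 0.12 in CEACAM5 and 0.41 in DLK1. The other 7 genes ranged from 0.58 in SEZ6 to 0.92 in CD24, and the median of all protein-coding genes was 0.61 (quartiles 0.33 and 0.74). At the 5′ end, the 2 genes with the least covered start thus had the lowest CpG ratios of the 9, a description with no test that does not hold for DLK1 at its MANE start, described below.

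The width of the region within 1 kb of the start ran from 706 bp, in DLK1 in H146, to over 5 kb. In SEZ6 it was 5328 bp wide in H82 and 5539 bp in H146, and in CADM1 it was 5229 bp and 5582 bp. In CD24 it was 3426 bp and 3531 bp and reached over most of this short gene, with 54.5% of the gene body covered in H82 and 55.4% in H146. NCAM1 had 3127 bp and 3562 bp, SEZ6L 2706 bp and 3162 bp, and CD276 1873 bp and 1821 bp. At SSTR2 the H82 start region, chr17:73163988-73167767, was 3780 bp wide and reached further into the gene than that of H146. The H146 region, chr17:73163024-73166581, was 3558 bp wide. It overlapped 2 H82 regions: the one at the start and one of 770 bp, chr17:73162708-73163477, 1.53 kb upstream of the SSTR2 start. That narrower H82 region reached further upstream than the H146 region did. Whether merging within 500 bp left 2 regions in H82 and 1 in H146 was not tested. The regions at the start of CD276 and SSTR2 were the wider ones in H82, and those of SEZ6, CADM1, CD24, NCAM1, SEZ6L and CEACAM5 were the wider ones in H146.

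CEACAM5 and DLK1 differed at the start itself. The H82 region near CEACAM5, chr19:41706615-41708232, stopped 353 bp upstream of its TSS, while the H146 region, chr19:41706432-41708650, ran over it. Of the 6 annotated start positions of CEACAM5, 0 lay in a region in H82 and 4 in H146. Both of these regions also lay over the TSS of CEACAM7, a neighbour of the same family, at chr19:41706976. The H82 region thus lay over the start of CEACAM7 and not over that of CEACAM5, and the H146 region lay over both. CEACAM5 entered the H82 count of genes with a region at the start through this region alone. Which of the 2 genes these regions act on was not tested. The body of CEACAM5 was bare, with 0% covered in H82 and 0.302% in H146. In DLK1 the only region at the start was a narrow one inside the annotated gene: 262 bp in H82, starting 1.17 kb from the gene's 5′ end, and 706 bp in H146, starting 877 bp from it. The MANE Select transcript of DLK1, the representative transcript in the annotation, starts 1187 bp from the 5′ end and lay in a region in both lines, with 13.1% of the window around it covered in H82 and 35.3% in H146. Thus the absence of DLK1 from the H82 count depended on which start was used, and this start was looked at after the data were seen. The bases around the MANE start had a CpG ratio of 0.80, so at this start DLK1 was still sparsely covered without a low CpG ratio.

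**Figure D1:**
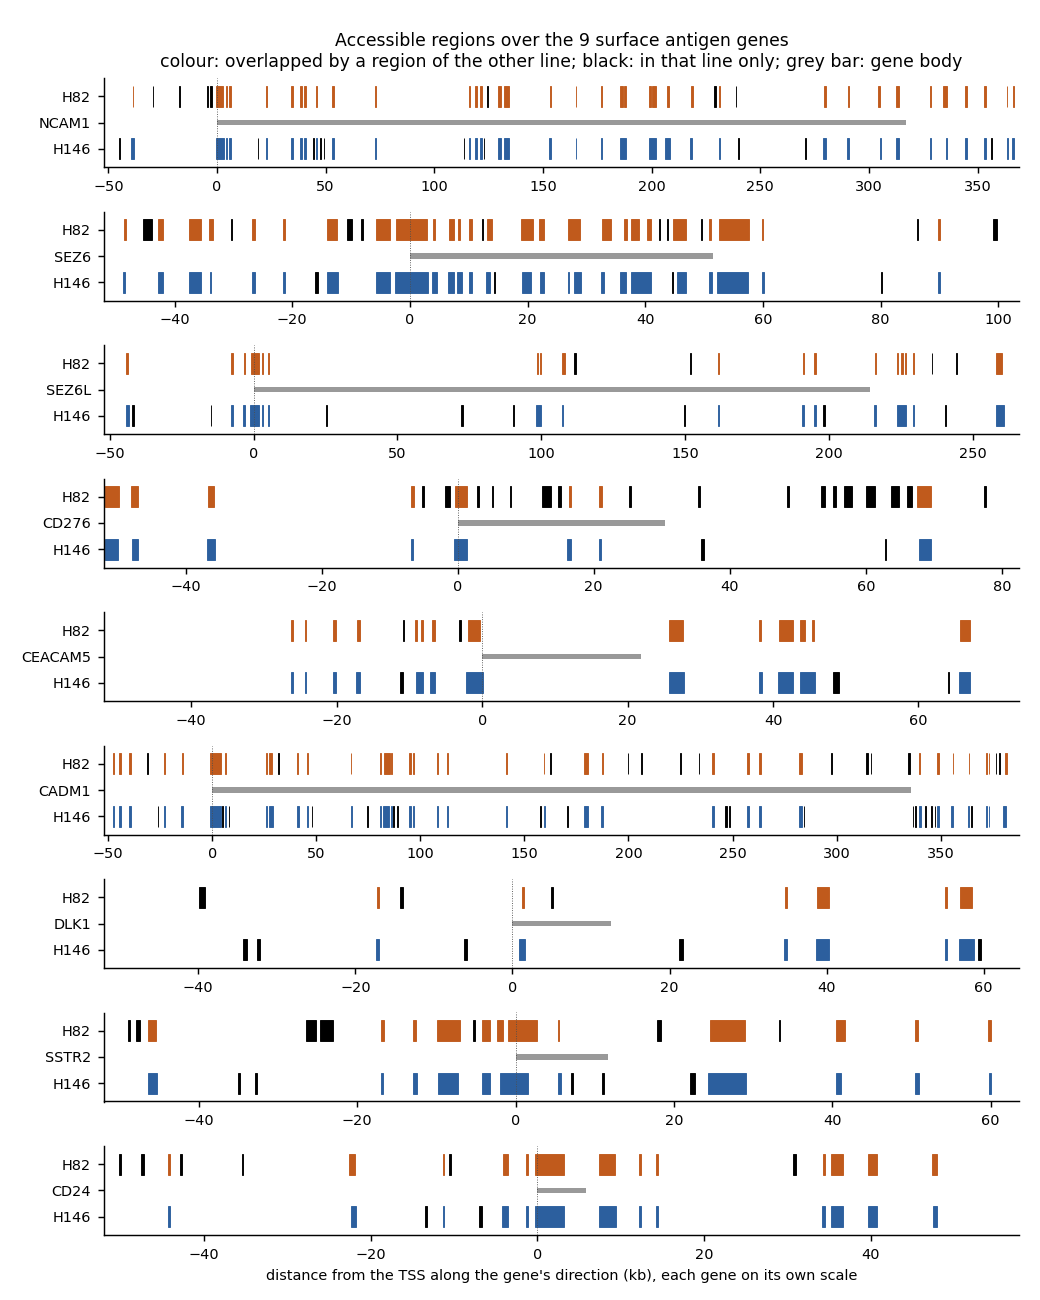
Accessible regions over each gene body and 50 kb to either side, drawn against distance from the TSS in kb along the direction of transcription, with H82 above and H146 below the grey gene body. Coloured bars were overlapped by a region of the other line and black bars were not; black bars make up 17 of the 25 H82 regions at CD276, most of them downstream.

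Beyond the start, each gene was described over its body and 50 kb to either side. These windows held 236 regions in H82 and 216 in H146. The adhesion genes NCAM1 and CADM1, the longest of the 9 at 317 kb and 336 kb, had the most regions. NCAM1 had 43 regions in H82 and 44 in H146, which covered 8.24% and 9.46% of its window. CADM1 had 47 and 52 regions and 7.54% and 9.14% covered. SEZ6 was the most densely covered of the 9, with 36 and 30 regions over 25.7% and 23.4% of its window. SEZ6L, from the same family, had 22 and 23 regions over 4.40% and 6.30%. SSTR2 had 19 and 16 regions over 18.9% and 15.6%, and CD24 had 19 and 15 over 12.1% and 11.3%. CEACAM5 had 16 and 15 regions over 8.78% and 12.0%, and DLK1 had 9 and 11 over 4.97% and 6.58%. CD276 was the gene whose lines differed most, with 25 regions in H82 and 10 in H146 over 13.2% and 5.67% of the window.

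On the log2 scale, the ratio of covered share in H82 to that in H146 was 1.22 for CD276. It was 0.28 for SSTR2, 0.14 for SEZ6 and 0.09 for CD24. The other 5 genes were lower in H82, with -0.20 for NCAM1, -0.28 for CADM1, -0.41 for DLK1, -0.45 for CEACAM5 and -0.52 for SEZ6L. Thus 4 of 9 genes were higher in H82, against 64.2% of all genes, and their median was -0.20 against 0.19 over all genes (quartiles -0.14 and 0.67). With 1.5-fold as the threshold, CD276 alone passed it in the direction of H82, where 29.5% of all genes did, and 0 of 9 passed it in the direction of H146, where 5.26% did. These values carry no replicate error, so close neighbours in the order, such as DLK1, CEACAM5 and SEZ6L at its low end, cannot be ranked.

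The surroundings of each gene, 2 Mb to either side, were covered to different degrees in the 2 lines, and the ratios were read against them. Around CD276 the surroundings were covered at 13.7% in H82 and 5.33% in H146, a ratio of 2.56, so the gene's own ratio of 2.32 was no larger than that of its neighbourhood. Divided by the surroundings, the log2 ratio of CD276 was -0.14. The higher coverage at CD276 in H82 was thus shared with its neighbourhood, and chromosome 15 as a whole was covered at 5.17% in H82 and 2.72% in H146. SEZ6 moved in the same way from 0.14 to -0.51, as its surroundings were covered at 10.6% in H82 and 6.83% in H146, and CD24 from 0.09 to -0.37. DLK1 moved from -0.41 to -0.91, since its surroundings were covered more in H82 (5.79% against 4.07%) while the gene's window was covered less. SEZ6L went to -0.64, CEACAM5 stayed at -0.45, SSTR2 stayed at 0.28, CADM1 went to -0.08 and NCAM1 to 0.01. After this division 0 of 9 genes passed 1.5-fold toward H82 and 2 of 9, SEZ6L and DLK1, passed it toward H146. The shares over all genes were then 11.1% and 10.7%.

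**Figure D2:**
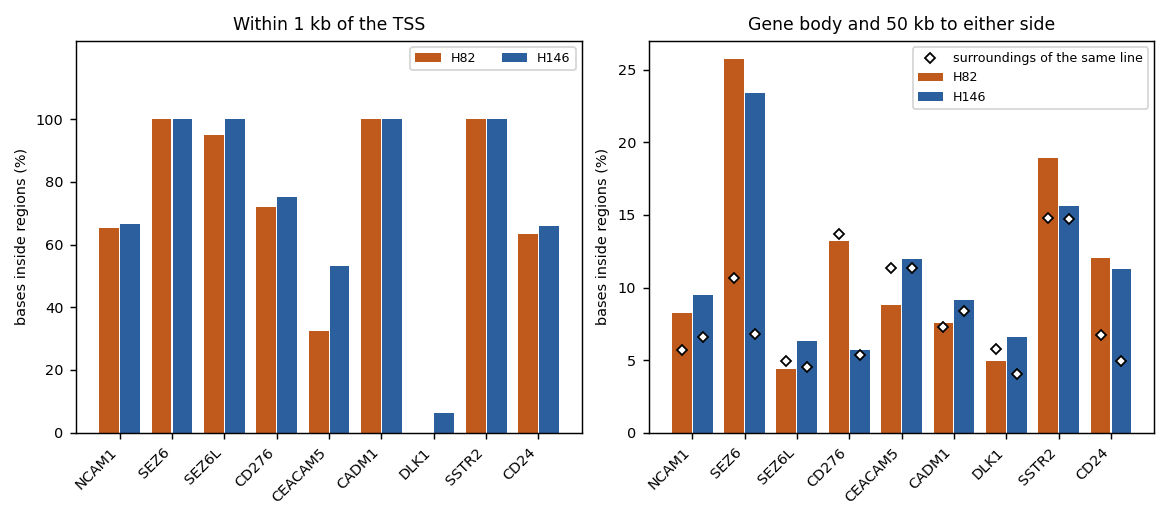
Percent of bases inside regions for each gene in H82 (orange) and H146 (blue), within 1 kb of the TSS (left) and over the gene body and 50 kb (right); diamonds give the surroundings, 2 Mb to either side, in the same line. The CD276 bars, 13.2% and 5.67%, stand beside diamonds at 13.7% and 5.33%.

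**Figure D3:**
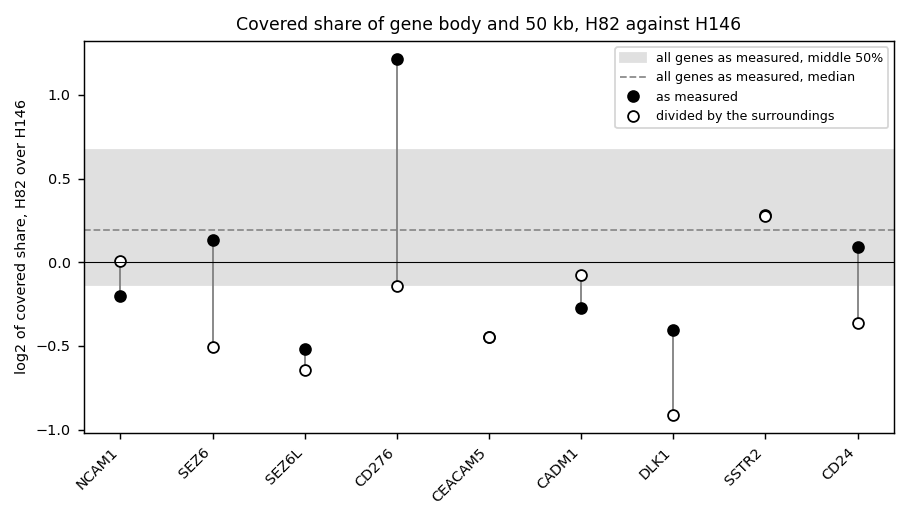
The log2 ratio of covered share, H82 over H146, for each gene as measured (filled) and divided by the ratio of its surroundings (open); the grey band and dashed line are the quartiles and median of all genes as measured. CD276 moves from 1.22 to -0.14 and DLK1 from -0.41 to -0.91, while SSTR2 and CEACAM5 hardly move.

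Most regions at these genes were present in both lines. Of the H82 regions, 167 of 236 (70.8%, exact binomial 95% interval 64.5 to 76.5, which covers counting error only) were overlapped by an H146 region, against 59.3% of all H82 regions. Of the H146 regions, 159 of 216 (73.6%, 67.2 to 79.4) were overlapped by an H82 region, against 70.5% of all H146 regions. Regions of the same gene share 1 stretch of DNA and are not independent, so these intervals do not test the difference from all regions. Sharing in H82 was highest in CEACAM5, at 14 of 16 regions, and NCAM1, at 36 of 43. It was lowest in CD276, where 8 of 25 H82 regions but 8 of 10 H146 regions were shared. In DLK1, 6 of 9 H82 regions and 6 of 11 H146 regions were shared. Regions found in 1 line were narrow, with a median width of 318 bp in H82 and 294 bp in H146. Shared regions had medians of 597 bp and 730 bp. The same held over all regions of the lines, with 377 bp and 315 bp for line-only regions and 610 bp and 662 bp for shared ones. At the 9 genes, 8 H82-only regions reached a width of 1 kb, and 0 H146-only regions did. The share of all line-only regions that reach this width is not given here.

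The H82-only regions at CD276 lay on both sides of its start and along its body. The nearest, chr15:73682169-73682882, was 714 bp wide and ended 1.08 kb upstream of the TSS. A further one of 1285 bp lay 12.5 kb into the gene over an exon. Between 53.3 kb and 66.0 kb from the start, downstream of the gene, 6 H82-only regions of 331 to 1270 bp stood in a row up to the shared region at the promoter of the neighbouring gene INSYN1. In H146 this stretch held a single region of 200 bp. The flank downstream of CD276 was covered at 16.5% in H82 and 4.81% in H146, the gene body at 16.1% and 7.34%, and the upstream flank at 8.08% and 5.52%.

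In SSTR2, a pair of wide H82-only regions lay 25.3 kb and 23.1 kb upstream of the start, 1196 bp and 1596 bp wide. The upstream flank of SSTR2 was covered at 22.4% in H82 and 16.1% in H146, and the downstream flank at 13.9% and 13.7%. Both lines shared a region 7.07 kb upstream in H82 and 7.29 kb upstream in H146, 2884 bp and 2541 bp wide. In SEZ6, an H82-only region of 1602 bp lay 43.8 kb upstream, and a shared region of 2022 bp lay 35.6 kb upstream with the same start and end in both lines. In NCAM1, an H82-only region of 1079 bp, chr11:112957911-112958989, lay 2.29 kb upstream of the start.

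SEZ6L, DLK1 and CADM1 had a larger covered share in H146, with the gaps in their bodies differing in both directions. In SEZ6L the longest stretch of the gene body with no region was 93.1 kb in H82 and 46.4 kb in H146, since H146 had regions in the long first part of the gene that H82 lacked. In CADM1 and DLK1 the longest such stretch was the shorter one in H82, at 28.0 kb against 52.4 kb and 7.40 kb against 10.9 kb. Downstream of SEZ6L, H146 had a region of 2991 bp that began 224 kb from the start, where H82 had several narrow ones, and the downstream flank was covered at 9.75% in H82 and 13.7% in H146. In CADM1 the widest H146-only region, chr11:115257670-115258580, was 911 bp wide and lay in an intron 246 kb from the start, within 1 kb of an alternative start of CADM1. The flank downstream of CADM1 was covered at 8.61% in H82 and 15.6% in H146, while the upstream flank was alike at 9.92% and 10.0%. In DLK1 the flank upstream held 3 regions in H82 and 4 in H146, of which 1 was shared.

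Where a region of 1 line met exactly 1 of the other, the widths could be compared directly. Of 149 such pairs at the 9 genes, 102 (68.5%) were wider in H146 and 29 were wider in H82, against 57.1% wider in H146 over all pairs of the genome. At SEZ6L 12 of 13 pairs were wider in H146, at CADM1 28 of 34, at CEACAM5 8 of 10, at DLK1 5 of 6, at NCAM1 22 of 32 and at SEZ6 15 of 23. CD276 was the other way round, with 2 of 8 pairs wider in H146 and 6 wider in H82. SSTR2 had 5 of 10 wider in H146 and 4 wider in H82, and CD24 had 5 of 13 wider in H146 and 2 wider in H82. In 18 pairs (12.1%) both the start and the end were the same base in the 2 lines, against 16.9% of all pairs, and CD24 held 6 of these among its 13 pairs. Pairs share the same 9 stretches of DNA and are not independent.

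**Figure D4:**
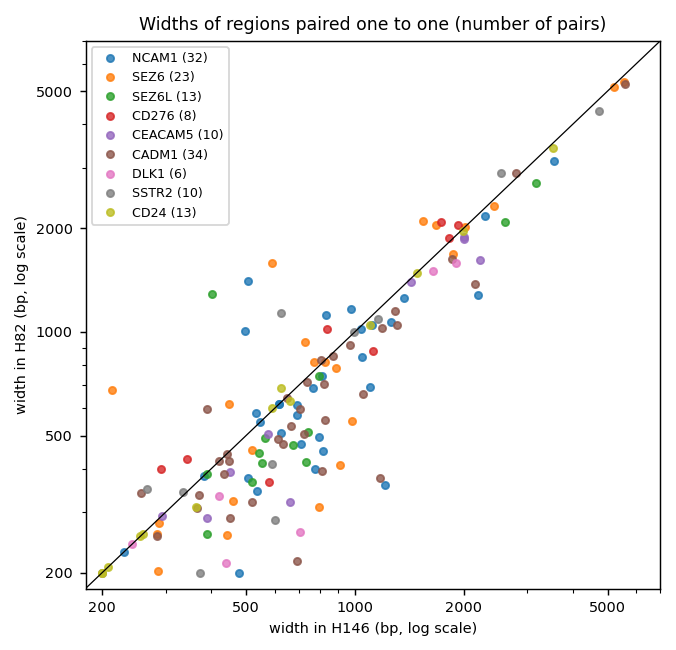
Width in H82 against width in H146 (bp, both axes on a log scale) for the 149 regions that paired one to one, coloured by gene; the line marks equal width. Of the pairs, 102 lie to the right of the line (wider in H146), 29 lie above it and 18 lie on it.

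The DNA of the line-only regions was searched for short words that known regulators of SCLC bind, on both strands: CAGCTG and CAGATG (E-boxes, the sites of basic helix-loop-helix factors such as NEUROD1), TAATCC (OTX2), TGTTTAC (FOXA), TGACTCA (AP-1) and TTCAGCACC (the left part of RE1, the site of the neuronal repressor REST). For each set, the share was set beside that of all regions of the same line, sharing and width class. CAGATG was found in 17 of the 69 H82-only regions (24.6%, against 40.7%) and in 20 of the 57 H146-only regions (35.1%, against 26.7%). CAGCTG was found in 22 of the H82-only regions (31.9%, against 28.9%) and in 9 of the H146-only regions (15.8%, against 25.8%). TAATCC was found in 34.8% of H82-only regions, against 41.7%, and in 19.3% of H146-only regions, against 14.1%. TGACTCA was found in 14.5%, against 8.50%, in H82-only regions and in 8.77%, against 8.82%, in H146-only regions. TGTTTAC was found in 4.35%, against 5.65%, in H82-only regions and in 10.5%, against 10.5%, in H146-only regions. In shared regions of H82 the shares were 44.3% for CAGCTG (against 44.7%), 46.7% for CAGATG (45.5%), 30.5% for TAATCC (28.7%), 10.2% for TGTTTAC (13.8%) and 14.4% for TGACTCA (16.9%). In shared regions of H146 they were 45.9% for CAGCTG (48.2%), 52.8% for CAGATG (48.8%), 29.6% for TAATCC (29.6%), 12.6% for TGTTTAC (15.9%) and 17.0% for TGACTCA (18.3%). A word is a description of the DNA and does not show that a factor was bound.

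Stretches of 100 bases are shown from line-only regions named above, each the part of its region with the most E-box and TAATCC words, on the plus strand of hg38 with those words in capitals (CATCTG is CAGATG on the other strand).
NCAM1 chr11:112958138-112958237 (+): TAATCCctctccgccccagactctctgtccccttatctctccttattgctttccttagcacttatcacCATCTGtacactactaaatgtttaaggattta
CD276 chr15:73682709-73682808 (+): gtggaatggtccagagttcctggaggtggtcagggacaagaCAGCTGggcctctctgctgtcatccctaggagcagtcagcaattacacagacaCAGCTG
CADM1 chr11:115258195-115258294 (+): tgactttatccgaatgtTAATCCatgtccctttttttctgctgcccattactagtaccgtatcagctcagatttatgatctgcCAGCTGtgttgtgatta
The NCAM1 and CD276 stretches were accessible in H82 only and the CADM1 stretch in H146 only.

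The RE1 word was of interest because SEZ6 and SEZ6L are neuronal genes, and REST is known to silence such genes outside neurons. It was found in 4 of 167 shared H82 regions (2.40%, against 1.38% of all shared H82 regions of the same widths) and in 3 of 159 shared H146 regions (1.89%, against 1.51%). In H82-only regions it was found in 1 of 69 (1.45%, against 0.538%), at CD276, and in H146-only regions in 0 of 57, against 0.513%. The matches at SEZ6 and SEZ6L are shown as 30 bases from the start of the word, 5′ to 3′ on the strand of the word. The region upstream of SEZ6 held 2 matches, 3.44 kb from the start at its nearest edge in H82 and 3.34 kb in H146, and the region over the SEZ6L start held 1 match, 1510 bp into the gene. Capitals mark the word and, where present, the right part of RE1, GGACAGC.
SEZ6 chr17:29010415-29010444 (-): TTCAGCACCtgcctcattcctgcccagccg
SEZ6 chr17:29011040-29011069 (-): TTCAGCACCagctggtgtgaagaatccaat
SEZ6L chr22:26170972-26171001 (+): TTCAGCACCaaaggccctGGACAGCtctca
In SEZ6L the right part followed after 9 bases, and at the other 5 matches at the 9 genes (2 at SEZ6, 2 at CADM1 and 1 at CD276) it did not occur within the 30 bases from the start of the word. Of all regions of at least 2 kb, 48 of 14529 in H82 (0.330%) and 42 of 12159 in H146 (0.345%) held both parts, on either strand, with at most 14 bases between them. This count takes every spacing up to 14 bases together, and which spacings REST binds was not examined. The right part was searched after the first matches had been seen.

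Other surface antigens and relatives of the 9 were set beside them. Of 19 other SCLC surface antigens, 18 had a region at the start (1 kb or nearer) in both lines, among them DLL3, the Notch ligand targeted in SCLC, whose window was covered at 19.5% in H82 and 15.2% in H146. GPC3, a glypican of the cell surface, had a region at its start in H82 only, and its gene body and 50 kb were covered at 3.79% in H82 and 0.477% in H146, a ratio of 7.96. At least 1.5-fold more was covered in H82 for 4 of the 19, among them GPC3, CD47 (1.53) and CD200 (a log2 ratio of 0.59), and in H146 for 2, ST8SIA1 (1.55) and KIT (1.67). Over all genes the shares were 29.5% and 5.26%. Divided by the surroundings, 1 of the 19 was past 1.5-fold toward H82, GPC3 with a log2 ratio of 2.39, while CD47 stood at 0.02 and CD200 at -0.08. Toward H146, 2 were past it, KIT (-0.66) and FGFR1 (-1.01), and ST8SIA1 was not (-0.54). The shares over all genes were then 11.1% and 10.7%.

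Relatives in the same protein families were a mixed group. Of these 18 genes, 10 had a region at the start in both lines, 2 in H82 only (SSTR4 and VTCN1), 3 in H146 only (SSTR3, SSTR5 and CEACAM3) and 3 in neither (CEACAM1, CEACAM8 and HHLA2). The covered share was at least 1.5-fold higher in H82 for 4, the adhesion molecule CADM3 (6.85), HHLA2 (1.93), SSTR1 (1.80) and VTCN1 (1.60). It was at least 1.5-fold higher in H146 for 4, SSTR3 (3.29), NCAM2 (1.84), CADM2 (1.83) and SEZ6L2 (1.52). These counts stand beside 29.5% and 5.26% of all genes. Divided by the surroundings, 2 of the 18 were past 1.5-fold toward H82, CADM3 (a log2 ratio of 1.87) and SSTR1 (0.94), and 2 toward H146, SSTR3 (-1.86) and SSTR4 (-0.67), against 11.1% and 10.7% of all genes. On that scale HHLA2 (0.38), VTCN1 (0.29), NCAM2 (-0.30), CADM2 (-0.50) and SEZ6L2 (-0.18) were not past it. Among somatostatin receptors, SSTR2 was covered at its start in both lines, at 100%, and SSTR1 was covered at 49.7% in H82 and 52.1% in H146. SSTR3 and SSTR5 were covered at 0% in H82 and at 16.7% and 13.3% in H146.

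The subtype labels were checked on defining genes. NEUROD1 was covered at 100% within 1 kb of its TSS in H82 and 0% in H146. INSM1, SYP and CHGA, markers of neuroendocrine cells, had a region at the start in both lines, as did POU2F3 and YAP1, markers of SCLC with low neuroendocrine character. Among genes of other cells, PTPRC and CD3E had none in either line, and COL1A1 and PECAM1 had one in both. The part of other cells in the results at the 9 genes was not tested.

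The genes most like CD276, over 6 covered shares (start, body and flanks in each line) and among genes over 1 Mb from any of the 9, were PPP1R21, IGSF3 and RAB3B, at Euclidean distances of 4.07, 5.34 and 5.44 percentage points. PPP1R21 was covered at 15.0% of its body in H82 and 5.65% in H146, against 16.1% and 7.34% for CD276. The bodies of IGSF3, at 13.0% and 10.6%, and RAB3B, at 14.4% and 10.5%, differed less between the lines.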

How the data were processed

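ATAC-seq was performed by the authors on H82 and H146 cells. The authors trimmed reads with Trim Galore 0.4.4, aligned them to hg38 with Bowtie2 2.3.4, called regions in each sample with MACS2, and merged those of 1 line within 500 bp into an atlas. Their counts (featureCounts 1.6.0) and DESeq2 results are not used here. The deposited values used are region starts (counted from 0) and ends in bp, given here 1-based; 0 columns held per-sample values. A site called in any sample enters the atlas, so number and width grow with samples and depth, which is unknown, and merging joins neighbouring sites.

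Genes came from GENCODE 44 and bases from hg38, on 24 chromosomes; 0 regions ended past their chromosome. The members and lists were chosen with earlier results of these data known. All 9 members are named; other listed genes are named where 1 line has a region at the TSS or covered share differs 1.5-fold, and CEACAM1, CEACAM8 and DLL3 were named after their values were seen. Genes with no covered base in both lines were left out of fold counts, and those with none in 1 line also of medians. Regions overlapping by 1 bp were shared, the same as by bedtools 2.31.1 for all but 0 regions. Python 3.11.15 and numpy 2.4.6 were used, and the interval code was tested on simulated data. Alternatives were other windows, overlaps, widths and scalings. Some listed genes are not reported here.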

Additional observations from a re-analysis of the deposited data

How the results depend on the processing

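No count with a region at the start moved by over 1.5 times under any alternative run. With any transcript's start, or the MANE Select start (added after the data were seen), it was 9 in H82 and 9 in H146. Where the region had to lie over the TSS base, the count was 7 in H82 and 8 in H146. Genes at least 1.5-fold higher in H82 (1 as reported) were 0 when covered share was divided by the chromosome and 0 when divided by the surroundings, where the log2 ratio of CD276 reversed to -0.14. Genes at least 1.5-fold higher in H146 (0 as reported) were 2 with regions at least 500 bp wide, 1 with the H82 atlas limited to its widest regions, 1 with 10 kb flanks, 1 with the gene body alone, 3 divided by the genome, 3 divided by the chromosome and 2 divided by the surroundings. Regions numbered 115 in H82 and 127 in H146 at a width of at least 500 bp, and 140 and 135 with 10 kb flanks. They numbered 108 and 108 in the gene body alone, and 367 in H82 and 313 in H146 with 100 kb flanks. Shared regions fell to 55.9% in H82 and 61.1% in H146 when 50% of both had to overlap, and were 79.1% in H82 and 68.5% in H146 at a width of at least 500 bp, so the order of the lines turned. SEZ6L, CADM1, DLK1 and CEACAM5 were lower in H82 under every alternative run, 9 for CEACAM5, which has no H82 region in its body, and 10 for the others. CD24 took the other sign in 7 of 10 alternatives and SEZ6 in 3. NCAM1 and SSTR2 did so in 1 each. No paired analysis was possible because the atlases pool all samples of a line, and the planned fits on counts, with the replicate block or with a replicate left out, were not run. Depth per sample is unknown, so a site absent from an atlas was not detected there, which is not absence.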
